A study of Mus musculus with 2 samples.

Results

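The miR-30 family is a set of 6 mouse miRNA genes, Mir30a, Mir30b, Mir30c-1, Mir30c-2, Mir30d and Mir30e, described here in the newborn stomach. Its members were taken by gene symbol, and all 6 were found among the 1973 miRNA genes of the deposited count tables. Small RNA below 30 nt was sequenced from whole stomachs of B6NCrl mice at postnatal day 0, in 2 libraries from different pups of 1 dam, with sex not collected. Both libraries belong to 1 untreated group with no transgene or mutation named in the labels, so the comparisons are between genes, between loci and between the littermates. Own-strand reads, those on the strand of the annotated gene, numbered 4463355 in pup 1 and 3454655 in pup 2. Levels are given in CPM, the counts of a gene for every 1000000 such reads. A read spans about a whole mature miRNA, so a CPM was not divided by hairpin length.

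A miRNA is cut from a hairpin in a longer primary transcript, first by Drosha in the nucleus and then by Dicer in the cytoplasm, and either arm of the hairpin (5p or 3p) can be loaded into an Argonaute protein. The loaded strand pairs with messenger RNAs mainly through its seed, bases 2 to 8, so miRNAs with 1 seed share many predicted targets. The miR-30 family is widely expressed in epithelial and other differentiated tissues. It is known to repress Snai1, a driver of epithelial-mesenchymal transition, the matrix gene Ccn2 and the autophagy gene Becn1.

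The family is encoded at 3 loci of 2 genes each, and the mature 5p arms show what the members share. They are printed 5′ to 3′ with the seed in capitals, from RefSeq on GRCm38.p6, whose table held 4 of the 6 members. Mir384, a gene on chromosome X outside the family, is added because its 5p arm carries the same seed.
miR-30a-5p: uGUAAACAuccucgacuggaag
miR-30e-5p: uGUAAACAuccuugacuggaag
miR-30c-5p, from Mir30c-1 and Mir30c-2: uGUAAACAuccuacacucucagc
miR-384-5p: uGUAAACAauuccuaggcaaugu
The first 12 bases were identical in miR-30a-5p, miR-30e-5p and miR-30c-5p. Counted from 1 at the 5′ end, miR-30a-5p and miR-30e-5p differed by the single change C13U, and miR-30a-5p and miR-30c-5p first differed at C13A, with 5 differences over 22 positions. Between miR-30a-5p and miR-384-5p the first difference was U9A, with 10 over 22 positions. Of the 1738 mature sequences in the table, the seed GUAAACA occurred in those of 5 genes, namely Mir30a, Mir30c-1, Mir30c-2, Mir30e and Mir384. Mir30b and Mir30d are the members absent from that table, so the search says nothing about their seeds.

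The 3p arms divided the same genes into seed groups that do not follow the loci. They are shown, with bases 2 to 8 in capitals, because they alone separate Mir30c-1 from Mir30c-2 among mature sequences.
miR-30a-3p: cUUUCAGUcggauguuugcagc
miR-30e-3p: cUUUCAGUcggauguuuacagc
miR-30c-1-3p: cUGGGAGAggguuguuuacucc
miR-30c-2-3p: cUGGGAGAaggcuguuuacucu
The 3p arms of Mir30a and Mir30e differed by G18A alone, and those of Mir30c-1 and Mir30c-2 by G9A, U12C and C22U. Each locus printed here thus pairs a member of the a/e type with a c gene. The deposited counts are per gene and do not say which arm a read came from.

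The locus a/c-2 lies on the plus strand of chromosome 1, with Mir30a (ENSMUSG00000065405) at chr1:23272269-23272339 and Mir30c-2 (ENSMUSG00000065567) at chr1:23291701-23291784, 19361 bp apart. Mir30a has no host gene in the annotation, and Mir30c-2 overlaps an exon of the lincRNA Gm27028. The locus b/d lies on the minus strand of chromosome 15, with Mir30d (ENSMUSG00000065437) at chr15:68341208-68341289, over an exon of the lincRNA Gm20732, and Mir30b (ENSMUSG00000065476) at chr15:68337415-68337510, outside any annotated host. Their hairpins are 3697 bp apart. The locus c-1/e lies on the minus strand of chromosome 4, with Mir30e (ENSMUSG00000065409) at chr4:120772606-120772697 and Mir30c-1 (ENSMUSG00000065490) at chr4:120769534-120769622, 2983 bp apart. Both sit in introns of Nfyc, which encodes a subunit of the CCAAT-binding factor NF-Y. Positions are those of GENCODE M21 on GRCm38.

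The libraries carried the markers of the tissue named in the labels. All 10 markers of stomach layers reached the detection minimum of 10 counts in both pups. The squamous lining list (Mir203, Mir205, Mir31) held 11.2% of own-strand counts in pup 1 and 11.7% in pup 2, the smooth muscle list (Mir143, Mir145a) 25.6% and 23.9%, the glandular list 0.816% and 0.769%, and the endocrine gene Mir375 0.768% and 0.715%. Mir143 stood at 250563 and 233153 CPM, Mir203 at 94572 and 96198 CPM, and Mir205 at 15272 and 18316 CPM. Of other tissues, the liver gene Mir122 held 0.0205% and 0.0255%, the skeletal muscle list (Mir206, Mir133b) 0.0101% and 0.0269%, the red cell list 0.00397% and 0.00347%, and the leukocyte list 0.0516% and 0.0502%. None of the 3 pancreatic genes was detected, with 12 and 9 counts in sum.

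All 6 members were detected, and their mean levels spanned from 17.0 to 11215 CPM. Together they held 1.73% of own-strand counts in pup 1, with an exact 95% interval of 1.72% to 1.75%, and 2.16% in pup 2 (2.14% to 2.17%), for a mean of 1.95% ± 0.298 (SD, n = 2). Intervals and limits cover counting error only, as amplified reads carried no molecular identifier. In whole tissue, more cells that express a gene and more RNA per cell cannot be told apart. Mir30e, Mir30d and Mir30a made up 98.7% of the family's counts, and each of the 6 held the same place in the order of levels in both pups. Reads of the whole miR-30c-5p fit Mir30c-1 and Mir30c-2 equally well and are not among these counts. The 98.7% and the places of the c genes therefore describe only reads assigned to 1 gene.

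Mir30e was the highest member at 9796 CPM in pup 1 and 12635 CPM in pup 2, with a mean of 11215 ± 2008 CPM (SD, n = 2), and ranked 18 among the 305 detected genes. Mir30d followed at 3729 and 4423 CPM (4076 ± 491 CPM, rank 33), and Mir30a at 3589 and 4238 CPM (3913 ± 459 CPM, rank 35). Mir30e was 2.63-fold above Mir30d in pup 1 and 2.86-fold in pup 2, and the ranges of these genes over the pups did not overlap. The ranges of Mir30d and Mir30a overlapped, and their means differed by less than the SD of either. Within each pup, however, Mir30d exceeded Mir30a by nearly the same factor, 1.04-fold in each (exact intervals of 1.02 to 1.06 and of 1.02 to 1.07).

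Mir30b, the lower member of locus b/d, stood at 190 CPM in pup 1 and 208 CPM in pup 2 (199 ± 13.0 CPM, rank 141). Mir30c-1 reached 24.2 CPM in pup 1 (108 counts, exact interval 19.8 to 29.2) and 35.9 CPM in pup 2 (124 counts, 29.9 to 42.8), and ranked 221. Mir30c-2 was the lowest, at 12.5 CPM in pup 1 (56 counts, 9.48 to 16.3) and 21.4 CPM in pup 2 (74 counts, 16.8 to 26.9), and ranked 243. The lowest value of Mir30c-1 lay above the highest of Mir30c-2, so these neighbours did not overlap either. Mir30c-1 exceeded Mir30c-2 by 0.85 ± 0.14 on the log2 scale (SD, n = 2), a factor of 1.93 in pup 1 and 1.68 in pup 2. Both c genes are counted here without reads of the whole miR-30c-5p, which fit either gene.

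Mir384 stood near the counted levels of the c genes, at 11.4 CPM in pup 1 (51 counts) and 16.5 CPM in pup 2 (57 counts). It ranked 249, and the family's summed level exceeded it 1408-fold. Its range overlapped that of Mir30c-2, whose level was 1.10-fold that of Mir384 in pup 1, with an exact interval of 0.738 to 1.64, and 1.30-fold in pup 2 (0.907 to 1.87). Neither arm of Mir384 occurs in another hairpin of the table, while the c genes are counted without reads of the whole miR-30c-5p. These ratios therefore set both arms of Mir384 against a part of Mir30c-2. No read was counted opposite to any of the 6 members. For Mir30e this count of 0 allows up to 0.00686% of its own-strand reads in pup 1, and 286 of the 305 detected genes (93.8%) likewise had none.

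**Figure D1:**
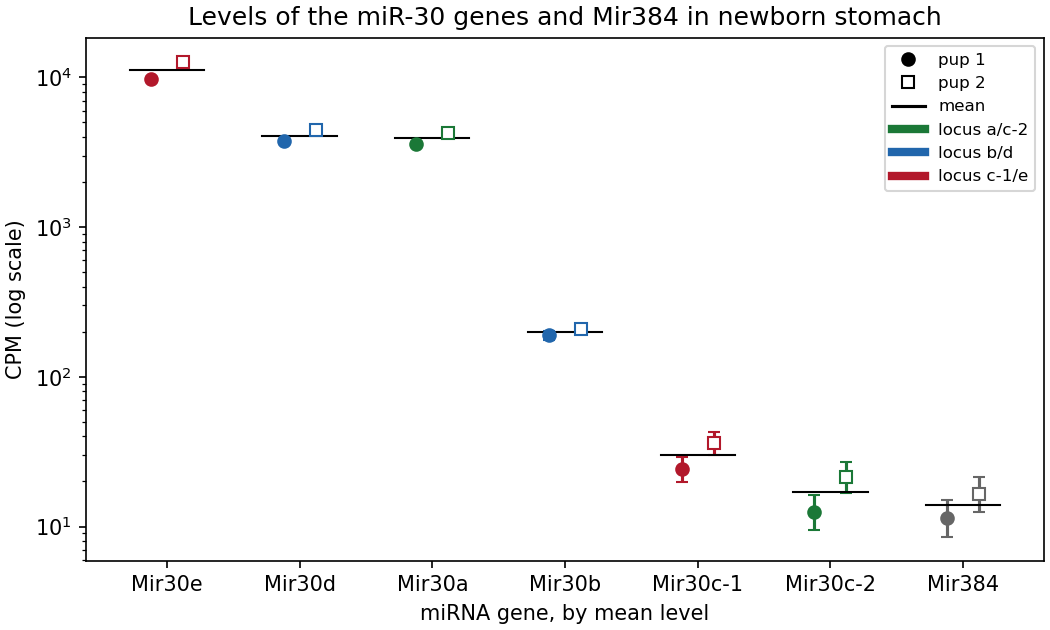
Level of each miR-30 gene and of Mir384 on a log axis of CPM; filled circles are pup 1, open squares pup 2, horizontal lines the mean, error bars the exact 95% counting interval, and colours the locus (grey, Mir384). Mir30e leads at 9796 and 12635 CPM, Mir30d and Mir30a lie close together, and the c genes lie at or below 35.9 CPM. The c genes are counted without reads that fit both of them.

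The 3 loci were compared by the summed counts of their genes. The locus c-1/e held 0.982% of own-strand counts in pup 1 and 1.27% in pup 2 (1.12% ± 0.202, SD, n = 2). The locus b/d held 0.392% and 0.463% (0.427% ± 0.0504), and a/c-2 held 0.360% and 0.426% (0.393% ± 0.0465). Of the family's own counts, c-1/e made up 57.7% ± 1.51, b/d 22.6% in pup 1 and 21.5% in pup 2, and a/c-2 20.3% ± 0.719. The single locus in Nfyc thus gave more counts than the others combined in both pups.

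Ratios between loci use counts of 1 library at a time and need no scaling between pups. The ratio of c-1/e over a/c-2 was 2.73 in pup 1 and 2.97 in pup 2, or 1.51 ± 0.0890 on the log2 scale (SD, n = 2). The ratio of c-1/e over b/d was 2.51 and 2.74, or 1.39 ± 0.0896 on the log2 scale. The loci b/d and a/c-2, on different chromosomes, stood in a ratio of 1.09 in each pup, with a log2 difference between pups of 0.000912 (exact interval -0.0440 to 0.0458). For c-1/e that difference between pups was -0.126 against a/c-2 (-0.163 to -0.0882) and -0.127 against b/d (-0.163 to -0.0903), so this locus took a larger part of the family in pup 2 beyond counting error. Both values are smaller than 0.172, the median absolute log2 difference between pups over all detected genes. With 2 pups an exact paired permutation test over samples cannot give a two-sided p under 0.5, so each mean ratio is set against its SD only.

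**Figure D2:**
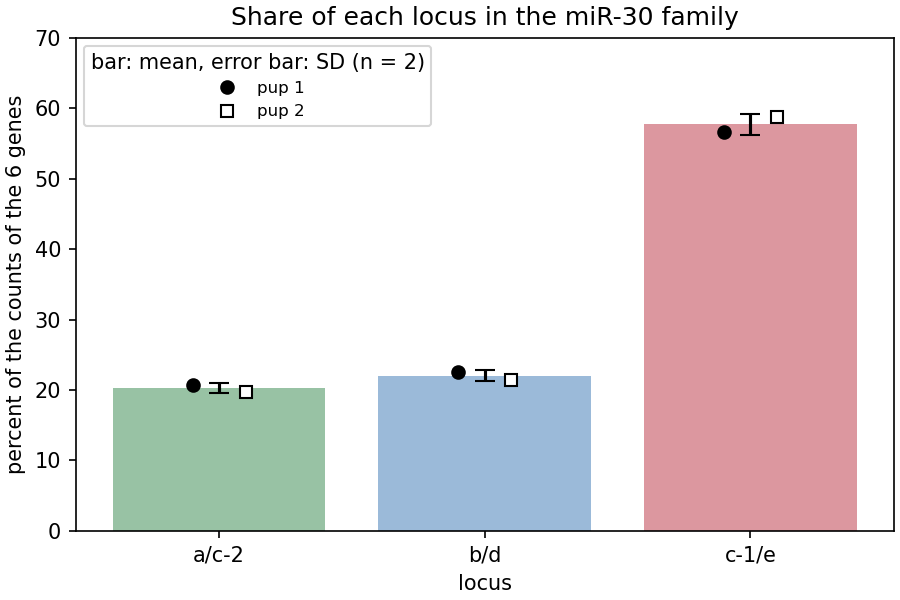
Percent of the family's counts held by each locus; bars are means, error bars the SD over 2 pups, circles pup 1 and squares pup 2. The locus c-1/e holds 56.6% in pup 1 and 58.8% in pup 2, and the others lie between 19.8% and 22.6%.

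Within every locus 1 gene supplied nearly all counts. Mir30e exceeded Mir30c-1 by 8.56 ± 0.143 on the log2 scale (SD, n = 2), 405-fold in pup 1 (counting interval from 335 to 494) and 352-fold in pup 2 (from 295 to 423). Mir30a exceeded Mir30c-2 by 7.89 ± 0.376, 286-fold in pup 1 and 198-fold in pup 2. Mir30d exceeded Mir30b by 4.35 ± 0.0797, 19.6-fold in pup 1 and 21.2-fold in pup 2. The c gene was the lower partner in both loci that have one, while b/d was the least uneven pair. These folds rest on reads assigned to 1 gene, and reads that fit both c genes equally well are not among them.

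The hairpins of Mir30c-1 and Mir30c-2 show which reads can be assigned to either gene. They are printed 5′ to 3′ with the longest stretch that both hold in capitals, 28 nt that begin at the first base of the 23-nt miR-30c-5p.
Mir30c-1, minus strand, chr4:120769534-120769622: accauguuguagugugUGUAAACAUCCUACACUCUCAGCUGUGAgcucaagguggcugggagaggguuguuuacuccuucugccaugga
Mir30c-2, plus strand, chr1:23291701-23291784: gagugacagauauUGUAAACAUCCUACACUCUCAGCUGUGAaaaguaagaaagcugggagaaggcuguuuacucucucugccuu
A read that lies wholly within the capitals fits both genes equally well. Reads that mapped to several places were kept out of the gene counts, and made up 26.0% of the sequenced reads of pup 1 and 25.7% of those of pup 2. Reads of the whole miR-30c-5p are therefore left out of the counts of both genes. Each c gene is counted by reads that reach outside the capitals, such as those of its 3p arm. The levels of Mir30c-1 and Mir30c-2, and with them the family share, can thus be understated. The folds of Mir30e and Mir30a over them can be overstated, and the shares of the 3 loci can shift. How many of the reads that mapped to several places came from miR-30c-5p was not tested. For Mir30a and Mir30e the longest stretch shared with any other hairpin of the table was 18 nt, in their 3p arms, and neither of their mature arms occurred whole in another hairpin.

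The members were also set beside genes with the same arrangement of arms. In the table, 555 counted genes had both arms annotated. In 49 of them 1 arm also occurred in another hairpin, as for Mir30c-1 and Mir30c-2. Of these 31 (63.3%) were detected, with a median of 15.6 CPM over all 49 and of 35.1 CPM over the detected genes. Of 489 genes with neither arm shared, as for Mir30a and Mir30e, 193 (39.5%) were detected, with a median of 0.948 CPM over all and of 234 CPM over the detected genes. The remaining 17 genes had both arms shared, and 4 of them (23.5%) were detected, with a median of 93.8 CPM over those 4. The order of the first classes thus depends on whether undetected genes are counted, and no difference between the classes was tested. Mir30c-1 and Mir30c-2 took places 18 and 22 among the 49 by level.

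**Figure D3:**
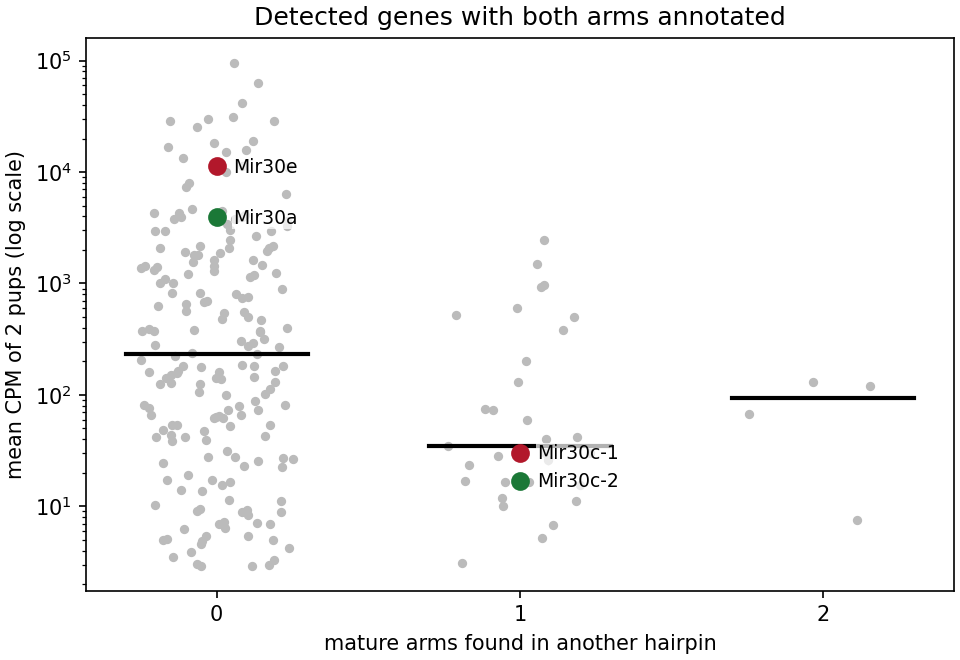
Mean CPM on a log axis of detected genes with both arms annotated, by how many of their mature arms occur in another hairpin; grey points are genes spread sideways for visibility, thick lines medians, and coloured points miR-30 genes. Mir30c-1 and Mir30c-2 lie below the median of their class, 35.1 CPM, and Mir30a and Mir30e above that of theirs, 234 CPM.

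Every member had a higher level in pup 2 than in pup 1 by value. The pups were compared with a two-sided exact binomial test per gene against TMM-scaled library sizes, with Benjamini-Hochberg adjustment over the 305 detected genes. A call needed a ratio of 1.5 or more together with an adjusted p below 0.05. This compares the 2 libraries with counting error alone. Under it 2.95% of detected genes were called in either direction and 2.30% as higher in pup 2. Of the 6 members, 1 was called. This was Mir30c-2, with 56 counts in pup 1 and 74 in pup 2, at a log2 ratio of pup 1 over pup 2 of -0.67 (exact interval -1.20 to -0.15; adjusted p = 0.023, exact binomial test).

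The abundant members differed by less. Mir30e, with 43722 and 43649 counts, had a log2 ratio of -0.26 (exact interval -0.28 to -0.24; adjusted p = 2.4e-159, exact binomial test), a ratio of 1.20 that is under the minimum. Mir30d and Mir30a had log2 ratios of -0.14 each, Mir30c-1 one of -0.47 (-0.85 to -0.08), and Mir30b one of -0.03 (-0.18 to 0.11). On the adjusted p alone 5 of 6 members passed, Mir30b being the exception, all higher in pup 2, beside 52.1% of detected genes in either direction and 24.3% higher in pup 2. When the common dispersion from edgeR served as the error, its exact test called 0 of the 6 members, beside 0.328% of detected genes. At an unadjusted p under 0.05 it also gave 0 members (Mir30c-2 was lowest, at 0.063), beside 5.25% of detected genes. That dispersion, a coefficient of variation of 11.4% between the pups, comes from the same 2 libraries, taken as replicates of 1 group. The difference under test thus helps to set its own error. Few calls are left by design, so this result cannot tell whether a member differs.

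The common direction of the members was set beside all genes. Their median log2 ratio was -0.20, against -0.02 over the 305 detected genes, of which 52.5% were higher in pup 2 by value. Scaling by total counts moved the median of all genes to -0.13, with 65.9% higher in pup 2, and DESeq2 size factors moved it to 0, with 50.2%. All 6 members stayed below 0 under each scaling, although Mir30b came to -0.01 with DESeq2 size factors. Mir30c-2 was the 1 member called under each, beside 5.25% of detected genes called with total counts and 3.28% with DESeq2 size factors. The members come from 3 loci in the same libraries and are not independent, and no test of the list was made. Among the tissue markers, the squamous, liver and skeletal muscle lists had higher shares of own-strand counts in pup 2, with the values given above. The smooth muscle, glandular, endocrine, red cell and leukocyte lists had lower ones. These shares are not TMM-scaled. By TMM-scaled values 2 of 3 squamous genes were higher in pup 2, but Mir203, the most abundant, was higher in pup 1 (log2 ratio 0.08). The glandular list was split, with 2 of 4 genes higher in pup 2 and log2 ratios from -0.37 to 0.37. The part of these tissues in the miR-30 difference was not tested.

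**Figure D4:**
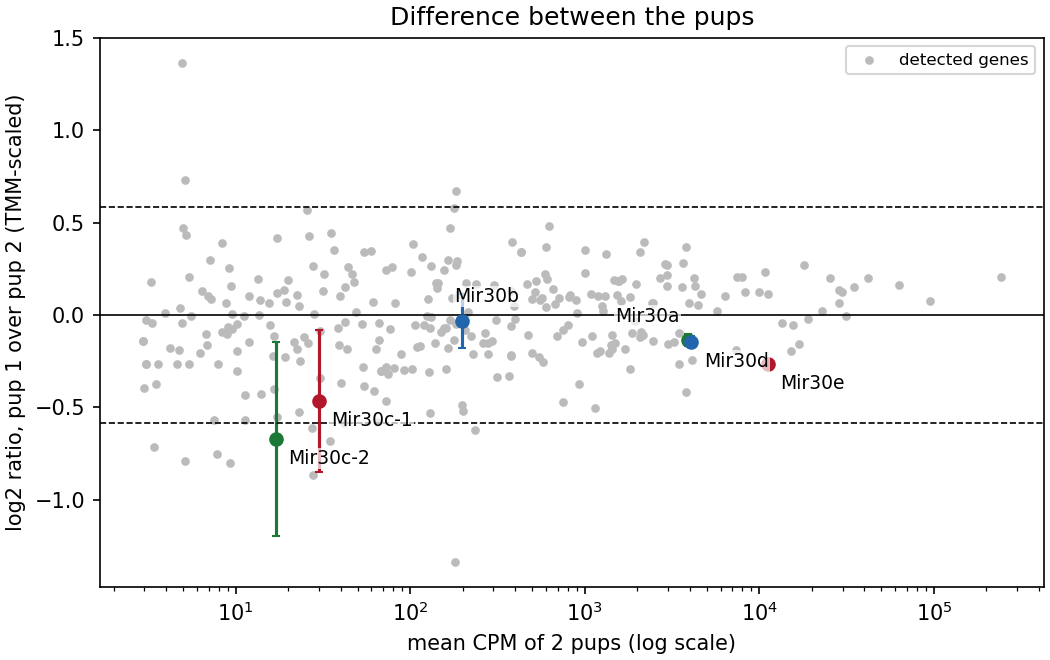
Log2 ratio of pup 1 over pup 2 after TMM scaling against mean CPM on a log axis for the 305 detected genes (grey); miR-30 genes are coloured by locus with exact 95% counting intervals, and dashed lines mark a ratio of 1.5 in either direction. All 6 miR-30 genes lie below 0, from -0.03 for Mir30b to -0.67 for Mir30c-2, the only member past a dashed line.

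Other multi-locus families gave a measure of how far the family's share moved between littermates. The let-7 and miR-98 family, which restrains proliferation and marks differentiation, held 9.27% of own-strand counts in pup 1 and 9.16% in pup 2 over 10 members, with Mirlet7e and Mirlet7f-1 not analysed here. Its level was 4.77-fold that of miR-30, a log2 ratio of miR-30 over let-7 of -2.42 in pup 1 and -2.09 in pup 2 (-2.25 ± 0.235, SD, n = 2). The miR-26 family, whose genes lie in introns of the Ctdsp phosphatase genes, held 2.89% and 2.83% over 3 members. The log2 ratio of miR-30 over it moved from -0.74 to -0.39. Mir26b supplied nearly all miR-26 counts, at a mean of 28538 CPM, beside 11.2 CPM for Mir26a-1 and 42.1 CPM for Mir26a-2. The miR-29 family, known as a repressor of collagen genes, held 0.0250% and 0.0268%, and miR-30 exceeded it 74.8-fold. Mir26a-1, Mir26a-2, Mir29b-1, Mir29b-2, Mirlet7a-1, Mirlet7c-1, Mirlet7c-2 and Mirlet7f-2 have at least 1 arm that occurs in another hairpin. Reads of theirs that mapped to several places were not counted, so these levels can be understated. Mirlet7a-2, which is also counted in let-7, was not among the genes checked for shared arms. None of the 10 let-7, 3 miR-26 and 2 detected miR-29 genes was called between the pups, and 5, 1 and 1 of them were higher in pup 2 by value, beside 2.95% called and 52.5% higher in pup 2 over all detected genes. The absence of calls among so few genes is near that background and does not set these families apart. Their median log2 ratios of pup 1 over pup 2 were 0.01, 0.14 and -0.01, beside -0.20 for miR-30. The difference in movement between families was not tested.

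Among miRNA genes linked to epithelial identity, as miR-30 is through Snai1, the list of Mir200a, Mir200b, Mir200c, Mir141, Mir429, Mir205 and Mir203 had 7 of 7 members detected. The miR-200 genes repress Zeb1 and Zeb2, which drive loss of epithelial character. The list held 17.1% of own-strand counts in pup 1 and 18.1% in pup 2, 9.09-fold the miR-30 share. These shares are not TMM-scaled, while the comparisons of single genes that follow are. None of the 7 was called between the pups and 5 were higher in pup 2 by value, beside the same 2.95% and 52.5% over all detected genes. Their median log2 ratio of -0.11 lay between that of miR-30 and that of all detected genes. Mir203 and Mir429, the most abundant of the 7, were higher in pup 1 (log2 ratios 0.08 and 0.12).

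Genes closest to each member in level over the 2 libraries were found by the distance in log2(CPM + 1). Mirlet7b, at 3608 and 4582 CPM, was nearest to both Mir30d (distance 0.0696) and Mir30a (0.113). Mir22 was nearest to Mir30e at a distance of 0.267, with 11253 CPM in pup 1 and 11174 CPM in pup 2, so it did not share the higher level of pup 2. Mir34c (193 and 219 CPM) was nearest to Mir30b, Mir301b (25.8 and 35.0 CPM) to Mir30c-1, and Mir129-1 (13.4 and 21.1 CPM) to Mir30c-2, each within 0.1. With 2 libraries such likeness describes level only.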

How the data were processed

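MicroRNA sequencing of 2 newborn mouse stomachs was analysed from 1 deposited table of raw counts per library, with columns without regard to strand and for each strand. Assembly mm10 and annotation M4 are named in the description files. The aligner, the counter and adapter trimming were not given in the sources used here. The strand column with the larger total (column 3) was used, and held 97.7% and 97.8% of gene counts. Rows that name no gene stayed out of totals: unmapped reads were 8.70% and 8.94% of all reads, those mapping to several places 26.0% and 25.7%, and those outside genes 1.78% and 1.70%. Symbols, positions and hosts came from GENCODE M21 on GRCm38, which matched 1894 of 1973 identifiers without version. Mir30a has another version there than in the tables. Mature and hairpin sequences came from RefSeq on GRCm38.p6. Hairpins were compared in both orientations.

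A count of 0 allows 0.672 CPM in pup 1 and 0.868 CPM in pup 2 (3 counts). Detection required 10 counts in each pup. TMM factors came from edgeR 4.0.16 (R 4.3.3) and alternative size factors from DESeq2 1.42.0, with Python 3.11.15, scipy 1.17.1, numpy 2.4.6, pandas 2.3.3 and matplotlib 3.10.9 for the rest. No quasi-likelihood test can be fitted with 1 library on each side. Fisher tests of the ratios between pups were replaced in the text by exact intervals, since their p-values would be adjusted over the members alone. The binomial test was tested on simulated data. Pups of 1 dam are littermates, and spreads are those between these 2 libraries. Ratios of members use counts of the same library. The named genes are the members, Mir384, for each member the nearest gene in level, markers holding at least 1% of counts, and genes opposite to a member with over 10 counts, of which there were none. The other tissue markers, the list members and the pairs with 1 arm in common are named outside this rule, the pairs after their values were seen. Members and lists were chosen with earlier results of these data known.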

Additional observations from a re-analysis of the deposited data

How the results depend on the processing

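The 3 ratios between loci and the 3 within loci kept their direction when the pups were taken alone. Counts of both strands could not change them, since no read was counted opposite to a member. The ratios between loci also kept it without Mir30c-1 and Mir30c-2. These genes held 0.239% of the family's counts, so that setting could barely move the ratios of c-1/e. It does not bring back reads that mapped to several places. Leaving Mir30c-1 and Mir30c-2 out raised the log2 ratio of b/d over a/c-2 to 0.127, more than its small SD over the pups. The choice of total changed the shares but not their order. Without Mir143 in the total the family held 2.56%, c-1/e 1.48%, b/d 0.563% and a/c-2 0.518%, while over all sequenced reads these were 1.21%, 0.699%, 0.266% and 0.244%. The number of genes called between the pups rose from 9 to 16 with scaling by total counts (15 of them higher in pup 2, against 7 of 9 with TMM), rose to 159 on the adjusted p alone and fell to 1 with edgeR's common dispersion. For the members the last settings gave 5 and 0 calls in place of 1. Mir30c-2 lost its call with the common dispersion, at a log2 ratio of -0.67 and an adjusted p of 1.00 (exact test of edgeR), and was called with total counts and with DESeq2 size factors (adjusted p = 0.0065 and 0.028, exact binomial test). Its 56 and 74 counts limit how firmly that difference can be read. The loss of the call cannot settle it, since the common dispersion was itself estimated from the difference between the pups. All 6 members were detected at a minimum of 1 or of 50 counts. With a stretch of 18 nt, all 4 members with a printed sequence, rather than 2, shared sequence with another hairpin. Mir30b and Mir30d had no sequence to compare, so sharing at locus b/d was not checked. No paired analysis was possible because the series has a single group.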

Other observations

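Mir30c-1 and Mir30c-2 are 1 of 11 pairs of detected genes that encode exactly 1 mature arm in common and differ in the other. By the mean log2 ratio over the pups, the higher gene exceeded the lower by a median of 3.65-fold in these pairs. The miR-30c pair was among the most even, at 1.80-fold and place 3 from the bottom, next to Mir138-1 over Mir138-2 (1.80-fold) and Mir194-2 over Mir194-1 (1.86-fold). Mir450-2 over Mir450-1 was the most even at 1.07-fold, and Mir92-1 over Mir92-2 the least at 41.4-fold, followed by Mir181a-1 over Mir181a-2 at 17.1-fold. Reads of the common arm are absent from such counts where they mapped to several places, so these ratios describe what can be assigned to 1 gene.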
